A study of Mus musculus with 10 samples.

Results

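Guanylate-binding proteins (GBPs) and immunity-related GTPases (IRGs) were followed through all conditions of an RNA-seq experiment in RAW264.7 cells, a mouse macrophage line. The 10 genes were chosen by name, as *Gbp2*, *Gbp3*, *Gbp4*, *Gbp5*, *Gbp7* and *Gbp9* for the GBPs and *Irgm1*, *Irgm2*, *Igtp* and *Iigp1* for the IRGs, and each was matched to its row through the Ensembl identifier. The identifiers of 9 of these were found among the 43432 genes of the count table, and *Gbp5* was not analysed here. All 9 passed the count filter that left 14172 genes for testing.

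The conditions were solvent alone (0.5% DMSO, without LPS), solvent with LPS (0.5% DMSO and lipopolysaccharide at 1 µg/mL, called DMSO + LPS), and the enone fatty acid **1**, a hexadec-7-enoic acid with a 9-keto group and an *E* double bond, at 32, 10 or 3.2 µM with LPS at 1 µg/mL. There were 2 libraries for each of the 5 conditions. Cells received **1** or solvent for 1 h, LPS was then added to all but the solvent-alone cells, and RNA was taken after 12 h. There was no condition with **1** and no LPS, so an effect of **1** on unstimulated cells cannot be read from these libraries. The design asks how far each dose of **1** changed the LPS response.

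GBPs and IRGs are large GTPases whose genes are switched on by interferons. In mouse cells they gather on vacuoles and membranes that hold bacteria or parasites, break them open or mark them, and the GBPs help the cytosolic LPS sensor caspase-11 and inflammasomes to act. The IRGs fall into regulators (*Irgm1*, *Irgm2* and *Igtp*), which sit on the cell's own membranes and hold the other IRGs inactive there, and effectors such as *Iigp1*, which are loaded onto the vacuole. In macrophages LPS induces them largely through secreted interferon-β, which acts back on the cells through its receptor and the transcription factors STAT2 and IRF9.

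On GRCm38, in the GENCODE M21 annotation, *Gbp7* (chr3:142530342-142550149), *Gbp3* (chr3:142560026-142573209) and *Gbp2* (chr3:142620602-142638008) lay in that order on the plus strand. *Gbp9* (chr5:105077630-105139539) and *Gbp4* (chr5:105115767-105139586) overlapped on the minus strand of chromosome 5. *Irgm1* (chr11:48861968-48871683, minus strand) and the overlapping pair *Igtp* (chr11:58199556-58207591) and *Irgm2* (chr11:58199618-58222782), both on the plus strand, were on chromosome 11. *Iigp1* lay apart from all of them. *Igtp* and *Irgm2* shared 162 exonic bases and *Gbp4* and *Gbp9* shared 60, so reads in those stretches could have been assigned to either gene of a pair. The pseudogene *Gm43802*, which was not analysed here, also held 8.77% of the 150-base windows of *Gbp7* transcripts.

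The sequences before the start sites are shown because interferon-induced genes are known to be bound there by interferon-activated transcription factors through short elements. The interferon-stimulated response element (ISRE) was searched as GAAANNGAAA on both strands and the gamma-activated site (GAS) as TTCNNNGAA, which reads the same on both strands, from 250 bases before to 50 after each RefSeq start (GRCm38.p6). Promoters were found for 6 of the 9 genes, namely *Gbp2*, *Gbp3*, *Gbp7*, *Irgm1*, *Irgm2* and *Igtp*. Each run below reads 5′ to 3′ on the gene's strand with the matches in capitals. Bases that GENCODE places in an untranslated region were left out of the *Gbp3* run, and *Gbp2*, whose match lies in such a region, is shown only as a stretch of 30 bases around it.
Gbp2 (chr3:142620594-142620623, plus strand): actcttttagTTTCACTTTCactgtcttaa
Gbp3 (chr3:142559914-142560025, plus strand): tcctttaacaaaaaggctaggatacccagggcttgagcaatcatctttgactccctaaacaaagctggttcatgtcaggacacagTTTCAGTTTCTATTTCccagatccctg
Gbp7 (chr3:142530206-142530335, plus strand): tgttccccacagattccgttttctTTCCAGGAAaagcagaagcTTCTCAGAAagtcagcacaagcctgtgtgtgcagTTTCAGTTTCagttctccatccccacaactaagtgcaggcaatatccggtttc
Irgm1 (chr11:48871421-48871550, minus strand): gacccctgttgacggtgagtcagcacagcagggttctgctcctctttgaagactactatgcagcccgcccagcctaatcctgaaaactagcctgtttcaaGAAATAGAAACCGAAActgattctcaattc
Irgm2 (chr11:58214847-58214976, plus strand): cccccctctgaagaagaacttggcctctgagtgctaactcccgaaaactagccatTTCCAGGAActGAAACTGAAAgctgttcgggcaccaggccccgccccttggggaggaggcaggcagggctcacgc
Igtp (chr11:58199426-58199555, plus strand): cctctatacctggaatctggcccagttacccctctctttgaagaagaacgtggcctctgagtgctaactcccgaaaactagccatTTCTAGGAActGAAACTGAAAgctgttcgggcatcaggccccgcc

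All 6 genes held the ISRE letters at one start site, which 3.44% of 32851 promoters of the same length held. The match began 59 bases before the start in *Gbp2*, 53 before it in *Gbp7*, 64 before it in *Irgm2* and 34 before it in *Igtp*. *Gbp3* had a pair of overlapping matches, beginning at −45 and −39, and *Irgm1* another, at −30 and −24. A further RefSeq start of *Gbp3* had neither element in its window.
The GAS letters, present in 8.3% of promoters, were found in *Gbp7* at −106 and −87, in *Irgm2* at −75 and in *Igtp* at −45. These 3 genes held both elements, as did 0.454% of all promoters. *Irgm2* and *Igtp* shared an unbroken run of 38 bases within the 130 before their starts, whereas the longest run shared by any other pair was 13, between *Gbp3* and *Gbp7*. The *Irgm1* and *Irgm2* stretches lay inside the GENCODE bounds of their genes, but not in an annotated untranslated region. A match is a description of these letters, and binding was not measured.

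**Figure D1:**
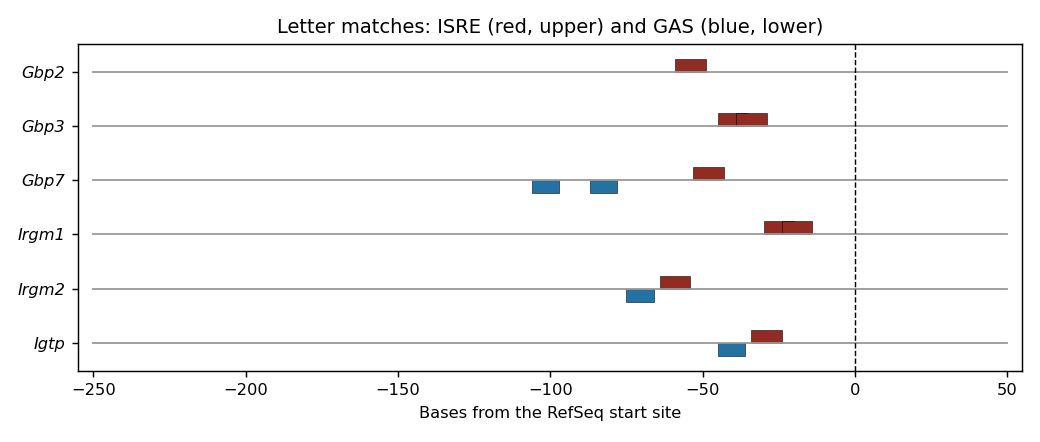
Positions of ISRE matches (red, upper boxes) and GAS matches (blue, lower boxes) in bases from the RefSeq start site (dashed line) for the 6 genes with a promoter sequence. Every ISRE match lies within 64 bases before the start, and GAS matches are seen in *Gbp7*, *Irgm2* and *Igtp*.

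Library totals lay between 45966803 and 58976377 counts. Values are given as CPM, which are counts scaled to a common library total with factors from the TMM method, and RPKM is CPM per kilobase of all annotated exons, which allows genes to be compared. In CPM, counting error, which covers the sampling of reads alone, was at most 10.5% of a value for 7 of the genes, but reached 37.8% for *Gbp4* (7 to 98 counts per library) and 20% for *Iigp1* (25 to 271 counts). A gene was called when edgeR's quasi-likelihood test gave a Benjamini-Hochberg adjusted p under 0.05 over all 14172 genes and the difference reached 1.5-fold. The labels number the libraries as biological replicates but do not state separate cultures, so p-values measure only the spread between these samples. An exact permutation test of 2 against 2 libraries cannot go below p = 0.333. In RNA from whole cultures, a changed share of responding cells and a changed amount of RNA per cell cannot be told apart.

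Several libraries stood apart. The epithelial markers *Epcam*, *Krt8* and *Krt18* summed to 1577 counts (33.9 CPM) in replicate 1 at 10 µM and 243 counts (5.24 CPM) in replicate 1 at 3.2 µM, against at most 5 counts in any other library. Replicate 2 at 32 µM had 2.83% of its counts on ribosomal RNA genes, and the other libraries had 0.153% to 0.333%. All 7 macrophage markers were detected in every library. Their summed level was 10655 to 11508 CPM in DMSO, 9756 to 9834 in DMSO + LPS, 9024 to 9182 at 3.2 µM, 8000 to 8680 at 10 µM and 7534 to 7875 at 32 µM. The members of this list did not move together. From DMSO + LPS to 32 µM the mean level went from 4126 to 2706 CPM for *Lyz2*, 3310 to 2548 for *Cd14*, 442 to 277 for *Itgam* and 255 to 206 for *Adgre1*, but from 814 to 1071 for *Csf1r*, 605 to 647 for *Cd68* and 243 to 250 for *Ptprc*. Of the T cell markers, *Cd3e* and *Cd8a* were at 0 in all libraries, and the list summed to at most 0.0698 CPM. The 3 B cell markers summed to at most 0.354 CPM, and the 3 fibroblast markers to at most 2.94 CPM, in replicate 1 at 10 µM. The part of these library differences in the results below was not tested, and results are given without the libraries concerned.

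LPS raised every gene of the set. All 9 were called higher in DMSO + LPS than in DMSO, where 14.6% of the genes tested were called higher and 13.6% lower. Their median log2 fold change was 3.33, against 0.0026 over all genes tested. With scaling by library size alone the median of all genes moved by −0.21 and 11.2% were called higher and 20.7% lower. All 9 were called higher under that scaling as well.

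Among the chromosome 3 GBPs, *Gbp2*, which helps to expose bacteria in the cytosol to caspase-11, had the largest rise. It was measured at 1.87 and 1.60 CPM in DMSO and at 69.0 and 64.5 CPM in DMSO + LPS, a 38.4-fold change (log2 5.26 ± 0.15, SE, adjusted p = 4.81e-08). *Gbp3* went from 11.6 and 10.6 CPM to 203 and 202 CPM (log2 4.19 ± 0.068). *Gbp7* went from 16.1 and 18.1 CPM to 181 and 163 CPM (log2 3.33 ± 0.15). In each of the 3 genes the lowest LPS library stood far above the highest library without LPS.

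Of the chromosome 5 GBPs, *Gbp9* rose from 4.56 and 4.39 CPM to 34.4 and 32.5 CPM (log2 2.90 ± 0.13). *Gbp4* rose from 0.119 and 0.176 CPM to 1.71 and 1.43 CPM (log2 3.39 ± 0.44, 95% interval 2.38 to 4.40). Its interval was the widest of the set and overlapped those of all other members but *Gbp2*.

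The regulatory IRGs also rose. *Irgm1*, which acts in autophagy and in restraint of other IRGs, went from 78.3 and 81.3 CPM to 436 and 428 CPM, a 5.41-fold change (log2 2.43 ± 0.049). *Irgm2* went from 17.5 and 18.7 CPM to 89.6 and 89.3 CPM, which was the smallest rise of the 9, at 4.94-fold (log2 2.31, 95% interval 2.18 to 2.43). *Igtp*, also known as Irgm3, went from 10.6 and 9.81 CPM to 79.9 and 81.2 CPM (log2 2.98 ± 0.076). The interval of *Gbp2* (4.92 to 5.60) lay above those of all 4 IRGs. The effector *Iigp1*, on chromosome 18, was scarce, with 25 counts in each DMSO library and 271 and 235 counts in DMSO + LPS (log2 3.48 ± 0.18).

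**Figure D2:**
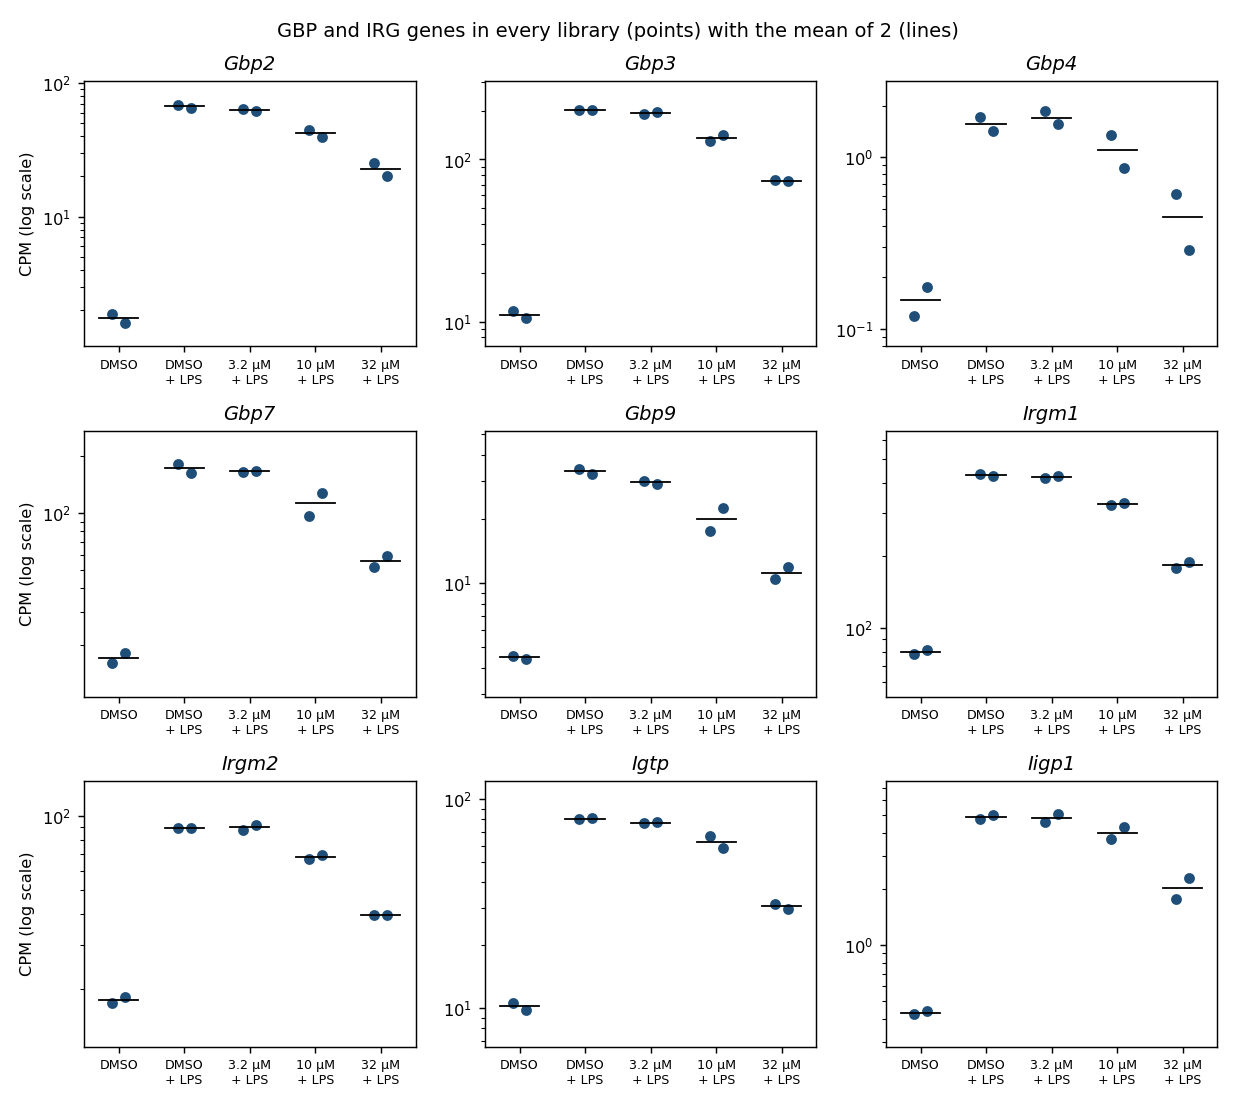
CPM on a log axis of each of the 9 genes in every library (points), with the mean of 2 libraries (lines), by condition. Values rise from DMSO to DMSO + LPS in every panel, stay near that level at 3.2 µM and are lower at 10 and 32 µM, where the lines of *Irgm1* sit at 326 and 183 CPM.

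Per length, *Irgm1* had the highest level in every condition, at 13.7 ± 0.37 RPKM (SD, n = 2) in DMSO and 74.3 ± 0.94 RPKM in DMSO + LPS. In DMSO the order that followed was *Igtp*, *Irgm2*, *Gbp3*, *Gbp7*, *Gbp9*, *Gbp2*, *Iigp1* and *Gbp4*, and the libraries of *Igtp* and *Irgm2*, and those of *Gbp3* and *Gbp7*, overlapped. In DMSO + LPS it was *Gbp3*, *Igtp*, *Gbp7*, *Gbp2*, *Irgm2*, *Gbp9*, *Iigp1* and *Gbp4*, with no overlap between neighbors. *Gbp2* made up 2.35% and 1.99% of the summed RPKM of the 9 genes in DMSO and 10.2% and 9.79% in DMSO + LPS. *Irgm1* made up 42.6% and 43.8% before LPS and 27.9% and 28.1% after it. At 32 µM the shares of *Irgm1* were 30.1% and 31.8% and those of *Gbp2* 9.93% and 7.84%, so the makeup stayed nearer to that of DMSO + LPS than to that of DMSO in both genes.

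At 32 µM all 9 genes fell. Each was called lower than in DMSO + LPS, where 2.91% of the genes tested were called lower and 1.27% higher, and in each both libraries at 32 µM lay below both DMSO + LPS libraries. The median log2 fold change was −1.46, against 0.0082 over all genes tested, and leaving out replicate 1 at that dose gave −1.47, or replicate 2 −1.40. The summed level of the 9 genes was 1099 and 1067 CPM in DMSO + LPS and 413 and 425 CPM at 32 µM, with 141 and 145 CPM in DMSO. Both libraries at 32 µM also lay below both of DMSO + LPS in 12 of 20 interferon signaling genes described further on, and above in 6. For the partner genes the counts were 8 and 3 of 18. The share of separated libraries over all genes tested was not computed.

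*Gbp2* was measured at 25.3 and 20.0 CPM at 32 µM, 2.94-fold below DMSO + LPS (log2 −1.56 ± 0.12, adjusted p = 0.000106). *Gbp3* was at 74.3 and 73.3 CPM (log2 −1.46 ± 0.06). *Gbp7* was at 51.8 and 59.3 CPM (log2 −1.63 ± 0.14). The 95% intervals of these 3 genes on chromosome 3 overlapped, and the widest ran from −1.95 to −1.32 for *Gbp7*.

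*Gbp9* was at 10.5 and 11.8 CPM (log2 −1.59 ± 0.12, adjusted p = 0.000106). *Gbp4* was at 0.613 and 0.287 CPM, from 30 and 13 counts (log2 −1.79 ± 0.39, adjusted p = 0.0257). The call of *Gbp4* was lost when only the 4 libraries compared were fitted (adjusted p = 0.0506) and in 5 of the fits that left out 1 library, where the adjusted p reached 0.156 without replicate 1 of DMSO + LPS. Its log2 fold change stayed negative in all of them and ran from −2.44 without replicate 1 at 32 µM to −1.35 without replicate 2.

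Of the regulatory IRGs, *Irgm1* was at 177 and 188 CPM at 32 µM (log2 −1.24 ± 0.047, adjusted p = 4.53e-06). *Irgm2* was at 39.9 CPM in both libraries (log2 −1.16 ± 0.051). *Igtp* was at 31.5 and 29.9 CPM (log2 −1.39 ± 0.071). These were falls of 2.24- to 2.62-fold, each with a standard error of at most 0.071. *Iigp1* was at 1.76 and 2.30 CPM (log2 −1.26 ± 0.16, adjusted p = 0.00184). The 5 GBPs had log2 fold changes of −1.79 to −1.46 and the 4 IRGs −1.39 to −1.16, so the ranges did not overlap. Without replicate 2 at that dose, the library with more ribosomal RNA, they did, with *Gbp4* at −1.35 and *Gbp2* at −1.40 against *Iigp1* at −1.47. Some IRG genes outside the set, such as *Ifi47* and *Gm5431* described further on, had values below the GBP range, while *Irgq* was not called. The gap thus holds only for the members of the set, and the difference between the families was not tested.

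The genes stayed above their level in unstimulated cells. All 9 were called higher at 32 µM with LPS than in DMSO without it, where 13.9% of the genes tested were called higher. The log2 fold changes ran from 1.14 ± 0.052 for *Irgm2* to 3.71 ± 0.14 for *Gbp2*, with a median of 1.60. With scaling by library size alone, 10.5% of genes were called higher and 19.7% lower, the median of all genes moved by −0.20 and these 9 stayed called. *Gbp4* lost this call in the fit of the 4 libraries compared, without replicate 1 of DMSO (adjusted p = 0.103) and without replicate 1 at 32 µM (log2 0.95, adjusted p = 0.147), against 1.60 with all libraries. This comparison shares the DMSO libraries with the LPS comparison and the 32 µM libraries with the dose comparison.

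**Figure D3:**
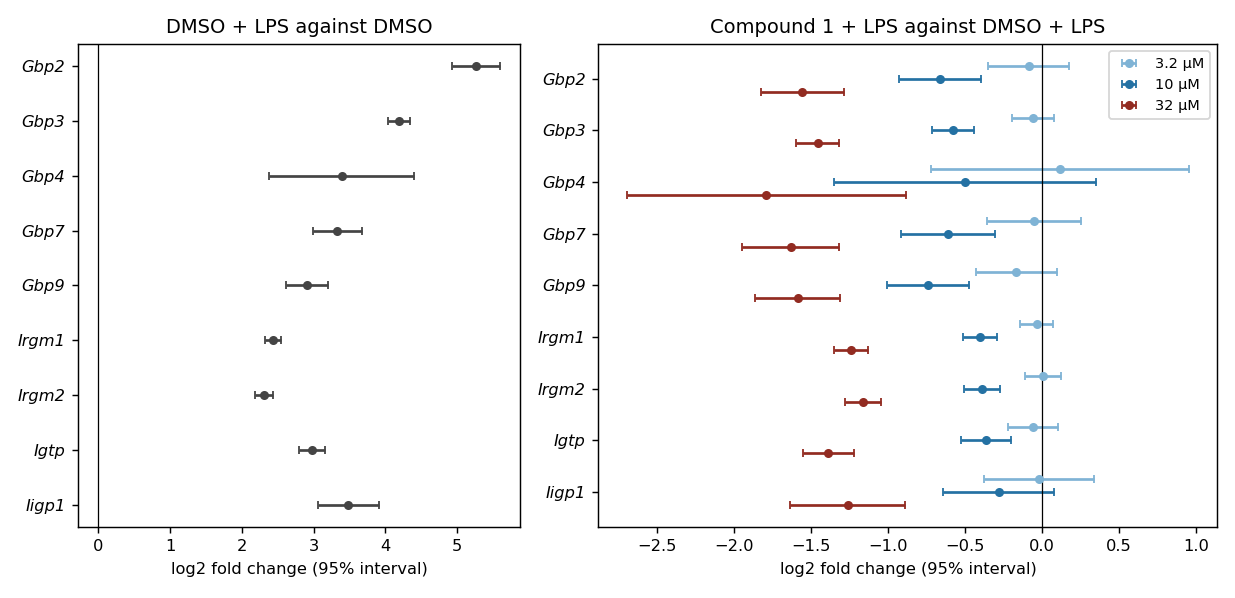
log2 fold changes (points) with 95% intervals (bars) of the 9 genes for DMSO + LPS against DMSO (left) and for **1** at 3.2, 10 and 32 µM against DMSO + LPS (right). At 32 µM all intervals lie below 0, at 10 µM those of *Gbp4* and *Iigp1* cross 0, and at 3.2 µM all cross 0.

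At 10 µM the set was lower by a smaller amount, and few members met both criteria. All 9 genes had a negative log2 fold change against DMSO + LPS, with both libraries below both of DMSO + LPS, and the median was −0.50 against 0.016 over all genes tested. Both libraries also lay below in 11 of 20 interferon signaling genes described further on, and above in 3. For the partner genes the counts were 7 and 2 of 18. The share of separated libraries over all genes tested was not computed. *Gbp2* and *Gbp9*, 2 of the 9, were called lower, where 0.579% of the genes tested were called lower and 0.282% higher. Without the filter on low counts 4 members were called, *Gbp3* and *Gbp7* in addition. *Gbp2* was at 44.6 and 39.7 CPM (log2 −0.66 ± 0.11, adjusted p = 0.0245). *Gbp9* was at 17.5 and 22.5 CPM (log2 −0.74 ± 0.12, adjusted p = 0.0163). Neither was called when only the 4 libraries compared were fitted, with adjusted p of 0.0913 for *Gbp2* and 0.153 for *Gbp9*.

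A further 4 genes passed the adjusted p but fell short of 1.5-fold. These were *Gbp3* at 130 and 142 CPM (log2 −0.58 ± 0.059), *Irgm1* at 322 and 331 CPM (log2 −0.40 ± 0.047), *Irgm2* at 66.7 and 69.7 CPM (log2 −0.39 ± 0.05) and *Igtp* at 66.5 and 58.6 CPM (log2 −0.36 ± 0.07), with adjusted p between 0.00287 and 0.0380. *Gbp7*, at 97.0 and 128 CPM in its libraries, was not called (log2 −0.61 ± 0.13, adjusted p = 0.0617). DESeq2's Wald test called *Gbp7* as well (adjusted p = 0.000294), which made 3 of 9. *Iigp1* was at 3.69 and 4.31 CPM (log2 −0.28 ± 0.15, adjusted p = 0.568). *Gbp4* was at 1.35 and 0.863 CPM (log2 −0.50 ± 0.37, adjusted p = 0.725).

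Replicate 1 at 10 µM is the library with the epithelial counts. Without it the log2 difference was −0.75 for *Gbp2* (adjusted p = 0.0474) and −0.57 for *Gbp9* (adjusted p = 0.0357, under 1.5-fold), so 1 of the 9 was called. Without this library and replicate 1 at 3.2 µM together, a fit chosen after seeing the data, 0 were called and the median was −0.46, with all 9 values negative and between −0.86 and −0.17. In that fit *Gbp3* (−0.52), *Irgm1* (−0.38), *Irgm2* (−0.36) and *Igtp* (−0.46) no longer passed the adjusted p, at 0.0607, 0.117, 0.126 and 0.106. The calls at this dose also numbered 0 without either replicate of DMSO + LPS or either replicate at 3.2 µM. Those fits take a library left alone in its condition to vary as the rest do.

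At 3.2 µM no member differed detectably from DMSO + LPS. edgeR called 0 of the 9, as did DESeq2, and 0% of the genes tested were called higher and 0% lower. The number of members with an unadjusted p under 0.05 was also 0, and the smallest unadjusted p was 0.181, for *Gbp9*. The median log2 fold change was −0.052 against 0.0040 over all genes tested. For *Irgm1* the 95% interval ran from −0.14 to 0.074, for *Gbp2* from −0.35 to 0.17 and for *Gbp4* from −0.72 to 0.96, so for *Gbp4* a change of 1.5-fold was within the interval. The sum of the set was 1038 and 1059 CPM. In 5 of the 9 genes both libraries lay below both of DMSO + LPS. In the lists described further on, this held for 7 of 20 interferon signaling genes and 5 of 18 partner genes, with 5 of each wholly above. The share over all genes tested was not computed.
*Gbp2* was at 63.7 and 61.9 CPM, *Gbp3* at 192 and 197 CPM and *Gbp9* at 30.3 and 29.3 CPM, each below both DMSO + LPS libraries, though none was called. *Gbp7* was at 164 and 168 CPM and *Gbp4* at 1.85 and 1.56 CPM, within or across the DMSO + LPS values. *Irgm1* (417 and 427 CPM) and *Igtp* (76.9 and 77.8 CPM) lay just below DMSO + LPS, and *Irgm2* (87.8 and 92.0 CPM) and *Iigp1* (4.55 and 5.05 CPM) on both sides of it. Without replicate 1, the library with epithelial counts, the value was −0.016 for *Irgm1* and −0.11 for *Gbp2*.

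Neighboring doses were compared directly. From 10 to 32 µM 8 of 9 genes were called lower, where 1.15% of the genes tested were called lower, with a median log2 fold change of −0.89. The exception was *Gbp4* (log2 −1.29 ± 0.39, adjusted p = 0.202). *Igtp* (log2 −1.02 ± 0.071, adjusted p = 0.000258) and *Gbp7* (log2 −1.02 ± 0.13) had about the same step, and *Irgm2* had the smallest (log2 −0.77 ± 0.051). None of the 9 was called when only these 4 libraries were fitted, with adjusted p from 0.0700 for *Irgm1* to 0.809 for *Gbp4* and values that moved by at most 0.024 on the log2 scale in any comparison. Without replicate 1 at 32 µM 5 were called, and without the libraries with epithelial counts 6 were called, *Gbp2* (adjusted p = 0.0896) and *Iigp1* (adjusted p = 0.0941) being lost.

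From 3.2 to 10 µM all 9 values were negative with a median of −0.52. None was called, by edgeR or DESeq2, where 0.183% of the genes tested were called lower. An unadjusted p under 0.05 in edgeR's test was found for 7, and the share of all genes with such a p was not computed. *Gbp3* (log2 −0.52 ± 0.059), *Irgm1* (log2 −0.37 ± 0.047) and *Irgm2* (log2 −0.40 ± 0.05) passed the adjusted p, at 0.0101, 0.0153 and 0.0153, without reaching 1.5-fold. Without both libraries with epithelial counts the values were −0.48, −0.37 and −0.40, and none of the 3 passed (adjusted p = 0.362, 0.499 and 0.436). Without replicate 1 at 3.2 µM alone none passed either, with adjusted p of 0.143 to 0.180. With replicate 2 at 10 µM left out, which leaves the library with epithelial counts to stand for that dose, 3 genes were called, namely *Gbp3*, *Gbp7* and *Gbp9*. With replicate 1 left out instead, 0 were called, with values of −0.46 for *Gbp3* (adjusted p = 0.0413), −0.37 for *Gbp7* (adjusted p = 0.279) and −0.40 for *Gbp9* (adjusted p = 0.188).

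The change by dose can also be put as the share of the LPS rise in CPM that was left, with the mean of DMSO as 0% and that of DMSO + LPS as 100%. The median over the 9 genes was 96.0% at 3.2 µM, 67.6% at 10 µM and 29.2% at 32 µM. At 32 µM the means ran from 21.3% for *Gbp4* (9.85% and 32.7% in its libraries) to 36.0% for *Iigp1* (29.9% and 42.1%). *Irgm2* had 30.6% in both libraries. On this scale the families overlapped at 32 µM, with 21.3% to 32.8% for the GBPs and 29.2% to 36.0% for the IRGs. At 10 µM the GBPs of the set kept 53.6% to 67.6% and its IRGs 70.1% to 80.5%, and single libraries overlapped. IRG genes outside the set were not put on this scale.
*Gbp9* had the smallest share left at 10 µM, with 44.9% and 62.3%, and at 3.2 µM, with 85.7% and 89.0%. All doses share the same DMSO and DMSO + LPS libraries, so these shares are not independent of one another.

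**Figure D4:**
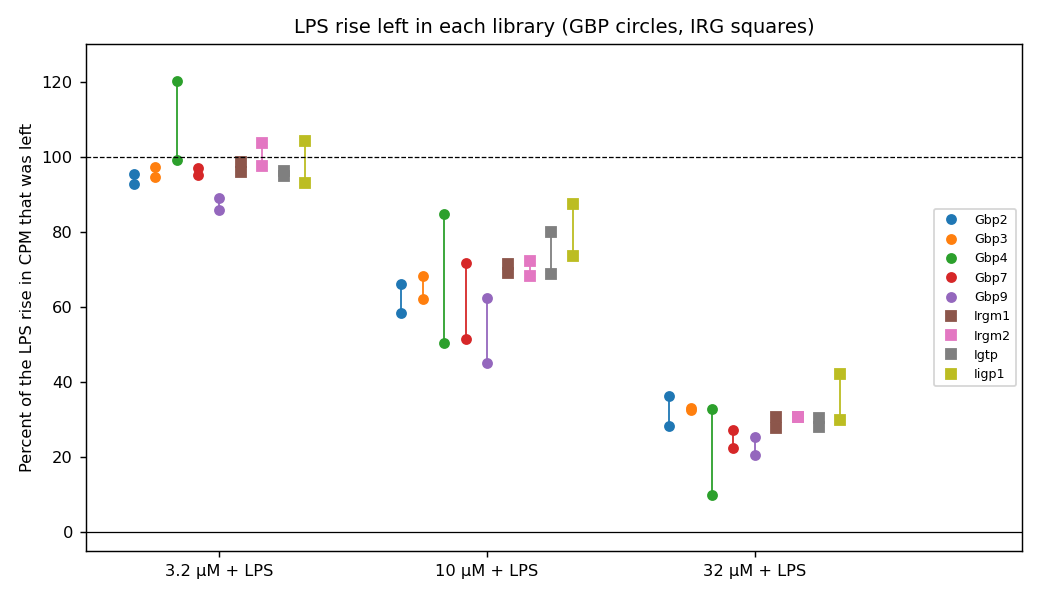
Percent of the LPS rise in CPM left in each library at 3.2, 10 and 32 µM, with both libraries of a gene joined by a line, circles for GBPs and squares for IRGs. The dashed line at 100 is the DMSO + LPS mean, and all points at 32 µM lie between 9.85 and 42.1%.

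The remaining genes of both families were taken from a list of 18, of which 16 were in the table and 9 passed the count filter. The 7 others had at most 9 counts in any library. Of the 9, 6 were called higher under LPS, against 14.6% of all genes tested. *Gbp2b*, the former Gbp1, went from 2.57 and 2.98 CPM to 103 and 97.5 CPM (log2 5.17 ± 0.11), and *Ifi47*, an effector IRG also called Irgd, had a log2 fold change of 3.43 ± 0.09. At 32 µM 7 of the 9 were called lower, against 2.91% of all genes tested, and 8 had a negative log2 fold change. The median of the list was −1.70 against 0.0082 over all genes tested. *Gbp2b* was at 29.0 and 32.5 CPM (log2 −1.70 ± 0.091). *Ifi47* changed by −1.84 ± 0.082 and *Gm5431*, an IRG-like gene, by −1.92 ± 0.24.
*9930111J21Rik2*, an IRG-like gene, also fell at 32 µM (log2 −1.67 ± 0.32), although it was not called under LPS (log2 0.21 ± 0.30). At 10 µM *Gbp2b* (log2 −0.74 ± 0.089) and *Ifi47* (log2 −0.60 ± 0.079), 2 of the 9, were lower, against 0.579% of all genes tested. At 3.2 µM 0 were called by edgeR or DESeq2, with 0 at an unadjusted p under 0.05.
*Irgq*, a distant relative, was not called in either comparison, with a log2 fold change of 0.10 under LPS (adjusted p = 0.248) and 0.10 at 32 µM (adjusted p = 0.452). Without replicate 1 of DMSO + LPS or replicate 1 at 32 µM, 4 of the list were called at 32 µM. At 10 µM 0 were called without either replicate of DMSO + LPS, and 0 without the libraries with epithelial counts.

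Genes that carry the interferon signal were taken from a list of 21, of which 20 were tested. *Ifng*, interferon-γ, had at most 1 count in any library and was not tested. Of the 20, 11 were called higher under LPS, where 14.6% of all genes tested were called higher. Among them were *Irf7*, an interferon-induced transcription factor (log2 3.21 ± 0.067), *Usp18*, a brake on the interferon receptor (log2 3.51 ± 0.07), and the cytokine signaling inhibitors *Socs3* (log2 6.74 ± 0.055) and *Socs1* (log2 2.84 ± 0.12). *Ifngr1*, a chain of the interferon-γ receptor, was lower (log2 −1.05).
At 32 µM 5 of the 20 were called lower, against 2.91% of all genes tested. They were *Ifnb1*, *Batf2*, *Irf7*, *Stat2* and *Usp18*, and the median of the list was −0.25 against 0.0082 over all genes tested.
*Ifnb1*, interferon-β itself, fell outside the naming rule and was chosen after its values were seen. It had 60 and 58 counts in DMSO + LPS and 12 and 11 counts at 32 µM (log2 −2.21, adjusted p = 0.00241). *Stat2*, a transcription factor of the type I interferon signal, was at 204 and 193 CPM and then 71.4 and 73.7 CPM (log2 −1.45 ± 0.051).
*Irf7* changed by −1.48 ± 0.063 and *Usp18* by −1.40 ± 0.065. *Irf9*, a DNA-binding partner of STAT2, was raised by LPS (log2 1.23) but changed by −0.28 at 32 µM, which is under 1.5-fold (adjusted p = 0.00498). The receptor chains *Ifnar1* (log2 0.14) and *Ifnar2* (log2 0.21) and the kinase *Jak1* (log2 −0.0092) were not called at 32 µM, with adjusted p of 0.236, 0.554 and 0.971 in edgeR's test. *Socs1* had a value of −0.55 ± 0.11, under 1.5-fold. *Batf2*, *Irf9*, *Ifnar1* and *Jak1* were likewise chosen after their values were seen.

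At 10 µM *Stat2* was lower, at 127 and 125 CPM (log2 −0.65 ± 0.05, adjusted p = 0.000966). It was 1 of the 20, against 0.579% of all genes tested, and 2 were called without replicate 1 at that dose. *Irf7* (log2 −0.55 ± 0.061) and *Usp18* (log2 −0.44 ± 0.063) passed the adjusted p but not 1.5-fold, and *Ifnar2* had a value of 0.28 ± 0.16 (adjusted p = 0.602). At 3.2 µM 0 of the 20 were called by edgeR or DESeq2, with 2 at an unadjusted p under 0.05, *Irf7* (log2 −0.16) and *Stat2* (log2 −0.14). The share of all genes with such an unadjusted p was not computed.

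**Figure D5:**
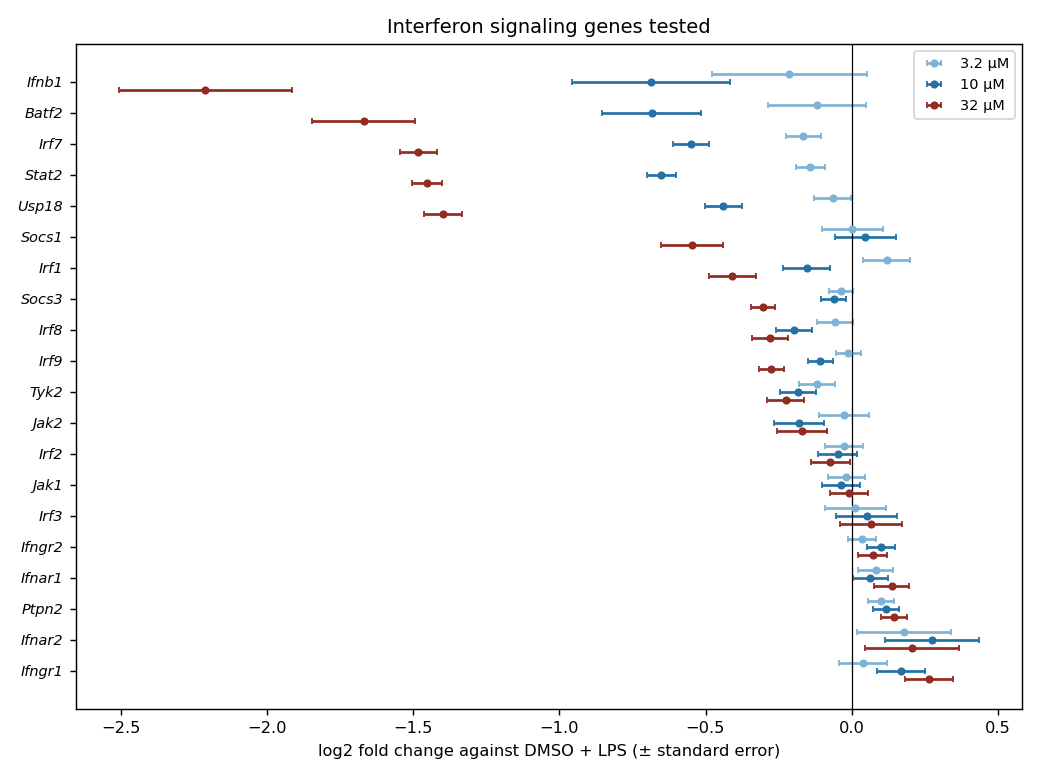
log2 fold changes against DMSO + LPS (points) with standard errors (bars) of the 20 interferon signaling genes tested, at 3.2, 10 and 32 µM, ordered by the value at 32 µM. The 5 genes at the top, from *Ifnb1* to *Usp18*, lie at about −1.40 or below at 32 µM. The 6 genes at the bottom, among them the receptor chains, lie above 0.

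Genes whose proteins work with the GBPs and IRGs, in the inflammasome and in autophagy, were taken from a list of 19, of which 18 were tested. *Pycard* had at most 33 counts in any library and was not tested. LPS raised *Casp4* (mouse caspase-11, log2 3.57 ± 0.051), *Nlrp3* (an inflammasome sensor, log2 3.09 ± 0.052), *Sqstm1* (the autophagy receptor p62, log2 1.90 ± 0.043), *Gsdmd* (the pore-forming gasdermin D, log2 1.14 ± 0.074) and *Casp1* (log2 1.07). *Nek7*, a partner of NLRP3, was lower (log2 −0.90). Of the 18, 5 were thus called higher and 1 lower, where 14.6% of all genes tested were called higher and 13.6% lower.
edgeR and DESeq2 called 0 of the 18 at each dose, where edgeR called 2.91% of all genes tested lower and 1.27% higher at 32 µM, so a count of 0 is near that share. There were 3 lower and 2 higher at an unadjusted p under 0.05 at 32 µM, 2 lower and 1 higher at 10 µM and 1 lower at 3.2 µM. The share of all genes with such an unadjusted p was not computed.
At 32 µM *Gsdmd* (log2 −0.57 ± 0.073), *Casp4* (log2 −0.47 ± 0.045) and *Sqstm1* (log2 0.54 ± 0.041) passed the adjusted p without reaching 1.5-fold, and *Casp1* had a value of −0.16 ± 0.10. At 10 µM *Sqstm1* (log2 0.29 ± 0.041) and *Casp4* (log2 −0.22 ± 0.045) did the same. *Casp4* was at 98.4 and 98.3 CPM in DMSO + LPS and 69.3 and 72.3 CPM at 32 µM, and the median of the list at 32 µM was −0.016. With replicate 1 of DMSO + LPS or replicate 1 at 32 µM left out, 1 gene of this list was called at 32 µM, as also without replicate 2 of DMSO or replicate 2 at 10 µM.

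The genes outside the set whose pattern was most like it were found by the correlation of log2 CPM with the mean pattern of the 9 members over the 10 libraries, among 9554 genes with a mean of at least 5 CPM. They were *Zbp1*, a sensor of Z-form nucleic acids (r = 0.999), the antiviral RNA-binding *Ifit1* (r = 0.999) and *Ifit3* (r = 0.999), *Gm43302* (r = 0.999) and the oligoadenylate synthetase-like *Oasl2* (r = 0.999). *Gm43302* is a protein-coding gene model at chr5:105214907-105293695. It lies among GBP genes, between *Gbp4* and *Gbp11*, and whether it holds GBP sequence was not tested. *Zbp1* was at 4.76 and 4.46 CPM in DMSO, 137 and 138 CPM in DMSO + LPS, 86.0 and 78.8 CPM at 10 µM and 32.9 and 29.7 CPM at 32 µM. The 10 points share 5 conditions, so high values of r are reached by any gene that follows the same 5 means. Among the 7 members at this level, r with the pattern ran from 0.988 for *Gbp2* to 0.998 for *Irgm1*.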

How the data were processed

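Poly(A)-selected RNA of RAW264.7 cells was made into 10 directional libraries and sequenced together on a single lane, and the authors deposited a table of raw read counts per Ensembl gene. Per the submitters' processing notes, reads were handled with Trimmomatic, FastQC and STAR on mm10 (GRCm38), and DESeq2 was used for their own comparisons. The counting tool, annotation release and strand setting are not given in the sources used here, so reads in overlapping or near-identical genes may have been split or dropped.

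Groups came from the labels. Of the 43432 identifiers, 42462 were matched to a symbol. Genes were filtered with filterByExpr (minimum count 10), scaled by TMM and fitted over all 10 libraries (5 residual degrees of freedom, which share 1 estimate of spread) with edgeR 4.0.16 (limma 3.58.1, R 4.3.3) by the quasi-likelihood test. Each condition was compared with DMSO + LPS, DMSO + LPS and 32 µM with DMSO, and each dose with the next. A call needed 1.5-fold and a Benjamini-Hochberg adjusted p under 0.05 over all 14172 genes. The procedure was tested on simulated data. CPM for correlations had 0.5 added before taking log2. Totals of 45966803 to 58976377 counts set the precision, and genes under about 100 counts were measured least well.

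The text names all 9 measured genes, from each list up to 4 genes per comparison with a mean of at least 5 CPM and the largest change, those that moved against their list, and the 5 most similar genes. One item is not reported here. The members and lists were chosen with earlier results of these data known. Alternatives were DESeq2 1.42.0, other scalings and filters, a 2-fold cutoff, a replicate block, fits of only the 4 libraries compared and leaving out each library. Promoter sequences were RefSeq's (GRCm38.p6) and gene positions GENCODE M21's. Figures were drawn with matplotlib 3.10.9.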

Additional observations from a re-analysis of the deposited data

How the results depend on the processing

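All 9 genes kept their direction for the LPS comparison and for 32 and 10 µM in every alternative that tested them. The filter on a mean of at least 5 CPM tested 7 and left out *Gbp4* and *Iigp1*. Over all members, comparisons and alternatives other than the 2-fold cutoff, 1120 values kept direction and side of the threshold, 39 lost the call, 12 gained it and 12 changed sign, all of them at 3.2 µM and near 0. The sign changes were in *Gbp4* (−0.0049 without replicate 2 of DMSO + LPS, −0.011 without replicate 1 at 3.2 µM, −0.012 without both libraries with epithelial counts), *Gbp7* (0.022 without replicate 1 of DMSO + LPS), *Irgm2* (−0.0011 with library size alone, −0.0073 without the count filter, −0.0050 without replicate 2 of DMSO, −0.0044 without replicate 2 at 10 µM, −0.029 without replicate 2 at 3.2 µM) and *Iigp1* (0.021 without replicate 2 of DMSO + LPS, 0.055 without replicate 1 at 3.2 µM, 0.054 without both libraries). With each library left out, *Gbp4* ran from −0.011 to 0.26, *Gbp7* from −0.12 to 0.022, *Irgm2* from −0.029 to 0.042 and *Iigp1* from −0.098 to 0.055. The cause of the changes below was not tested, except that fits with fewer libraries have fewer degrees of freedom.

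Members called at 10 µM numbered 4 without the count filter, 0 in the fit of 4 libraries, 0 with a 2-fold cutoff, 0 without both libraries with epithelial counts and 0 to 3 with each library left out. From 10 to 32 µM they numbered 0 in the fit of 4 libraries, 2 with a 2-fold cutoff and 5 to 8 with each library left out, and from 3.2 to 10 µM 0 to 3. At 32 µM against DMSO + LPS and against DMSO they were 8 to 9. Of the other family genes, with a mean of at least 5 CPM 3 were called under LPS and 4 at 32 µM, where leaving out each library gave 4 to 8. At 10 µM they were 0 in the fit of 4 libraries, 0 with a 2-fold cutoff, 0 without both libraries with epithelial counts and 0 to 3 with each left out. Interferon signaling genes called at 32 µM were 3 with a mean of at least 5 CPM, where fewer genes are tested, and at 10 µM 2 without the count filter, with DESeq2 or without both libraries with epithelial counts, 0 with a 2-fold cutoff and 1 to 2 with each left out. Partner genes called at 32 µM were 1 without the count filter and 0 to 1 with each left out.

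Samples with the same replicate number did not deviate together in every pair of conditions (correlations from −0.227 to 0.707, negative in each pair that holds DMSO + LPS), so the numbers were not taken to pair the samples. With the replicate block, members called were 9 under LPS, 9 at 32 µM, 3 at 10 µM and 0 at 3.2 µM, 8 from 10 to 32 µM and 0 from 3.2 to 10 µM. Interferon signaling genes called at 10 µM were 2. Other family genes called at 32 µM were 8, in this block and in the crossed block below. With the DMSO + LPS numbers crossed in the block, chosen after seeing the data like the fit without both libraries with epithelial counts, members called at 10 µM were 3, other family genes 4 and interferon signaling genes 2. Depth limits *Gbp4* most, with 7 to 98 counts.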
